A study of Mus musculus with 8 samples.

Results

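Parvalbumin interneurons of the mouse cortex were examined here as 269 nuclei selected on raw UMI counts (unique molecular identifiers, each standing for 1 captured RNA molecule) out of 54343 nuclei kept. A nucleus had to hold at least 3 UMIs of Gad1 and Gad2 together and at least 2 of Pvalb, with no more than 1 each of Slc17a7, Sst, Vip and Lamp5. The 269 nuclei, called gated Pvalb nuclei below, made up 0.495% of the nuclei kept and 4.31% of the 6241 GABAergic nuclei, those that met the Gad1, Gad2 and Slc17a7 limits alone. The nuclei came from 4 Wt mice (Ifnar1+/+) and 4 Ifnar1-/- mice, which lack the alpha chain of the type I interferon receptor in every cell. All 8 mice were naive C57BL6J animals of 6 weeks by their labels, 2 females and 2 males of each genotype, and 1 library of cortical nuclei was made per mouse with 10x 3' chemistry. Libraries are named here by genotype, sex and number, as in Wt F1 or Ifnar1-/- M2. The mutant line had been backcrossed to C57BL/6J for many generations, and the comparison asks what loss of the receptor changes in unchallenged animals.

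Parvalbumin interneurons are GABAergic cells that fire brief action potentials at high rates and inhibit the soma, proximal dendrites or axon initial segment of pyramidal neurons. Their fast firing depends on Kv3 potassium channels such as Kcnc1 and Kcnc2 and on the sodium channel Scn1a, and many of them carry a perineuronal net. Type I interferons act through a receptor of the subunits Ifnar1 and Ifnar2, which signals by kinases such as Jak1 and Tyk2 and by Stat2 and Irf9 to induce interferon-stimulated genes.

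The promoter of Gon4l is shown because Gon4l was the protein-coding gene called between genotypes in gated Pvalb nuclei, and because interferon signalling acts through the ISRE and GAS motifs. Both strands of the 250 bases before each gene start in the RefSeq set (GRCm38.p6) were searched for an ISRE core, TTTCNNTTTC, and for a GAS motif, TTCNNNGAA. Of 32851 such windows, 2.98% held the ISRE core and 7.02% the GAS motif. The Gon4l window lies on the forward strand at chr3:88834981-88835230 and held 0 ISRE matches and 1 GAS match, printed in capitals. A match of letters is a description of the window only.
Gon4l: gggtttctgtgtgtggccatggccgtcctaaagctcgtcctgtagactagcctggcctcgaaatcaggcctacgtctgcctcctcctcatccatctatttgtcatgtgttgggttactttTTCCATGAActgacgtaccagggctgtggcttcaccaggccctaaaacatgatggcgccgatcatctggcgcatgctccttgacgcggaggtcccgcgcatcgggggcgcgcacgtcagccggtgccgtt

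The gate yielded few nuclei and uneven numbers. The Wt libraries gave 39 (F1), 36 (F2), 22 (M1) and 66 (M2) gated Pvalb nuclei, and the Ifnar1-/- libraries gave 4 (F1), 23 (F2), 57 (M1) and 22 (M2), which sums to 163 and 106. As a share of the GABAergic nuclei of the same library these were 4.70%, 6.02%, 2.39% and 7.95% in Wt and 0.673%, 2.97%, 5.73% and 3.14% in Ifnar1-/-. The groups overlapped. The means were 5.27% ± 2.34 (SD, n = 4) and 3.13% ± 2.07 (SD, n = 4), and their difference of -2.14 percentage points did not exceed the spread between mice (2-sided exact permutation test, p = 0.257, with 0.0286 the smallest p that 4 against 4 allows). Because a nucleus had to show 2 UMIs of a gene that is sparsely captured in nuclei, fewer Pvalb cells and less Pvalb RNA per nucleus cannot be told apart in these shares.

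**Figure D1:**
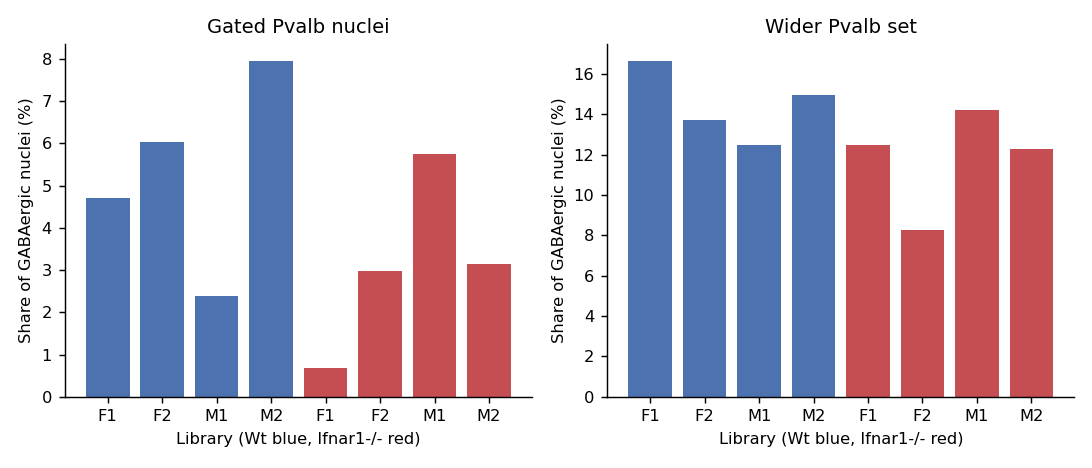
Share of GABAergic nuclei (%) that were gated Pvalb nuclei (left) or belonged to the wider Pvalb set described below (right), 1 bar per library, with Wt in blue and Ifnar1-/- in red. The gated share ran from 0.673% to 7.95% and the wider share from 8.27% to 16.6%, with overlap of the genotypes in both.

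Most members sat close to the Pvalb limit. Of the 269 nuclei, 167 (62.1%) held exactly 2 Pvalb UMIs, 70 held 3, 22 held 4 and 10 held 5 or more, with 6 the highest. Just outside stood 418 nuclei that met every other limit with exactly 1 Pvalb UMI. At the other limits, 42 members had a Gad1 and Gad2 sum of exactly 3 against 63 nuclei just outside with 2, and 42 had 1 Slc17a7 UMI against 5 outside with 2. Of the 482 kept nuclei with at least 2 Pvalb UMIs, 162 fell short on Gad1 and Gad2 and 43 exceeded the Slc17a7 limit. Depth moved with membership, since gated nuclei had a median of 10441 UMIs (quartiles 8333 and 12529) and 3874 genes, whereas the 418 nuclei with 1 Pvalb UMI had a median of 8509 UMIs and all GABAergic nuclei 7615. Scrublet marked 4 of the 269 as doublets, against 4.17% of all nuclei kept. Library totals ranged from 44063346 to 58423423 UMIs, and the UMIs summed over gated Pvalb nuclei from 31703 in Ifnar1-/- F1 to 659505 in Wt M2. No pair of libraries shared more than 0.34% of barcodes.

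A wider set was therefore added after the data had been seen. The GABAergic nuclei were clustered without the 7 gate genes, a few sex-linked genes such as Xist and Ddx3y, or the mitochondrially encoded genes. Other genes of chromosomes X and Y stayed in. The 3 clusters in which gated Pvalb nuclei outnumbered gated Sst, Vip and Lamp5 nuclei were combined. The resulting 824 nuclei (459 Wt and 365 Ifnar1-/-) held 187 of the 269 gated nuclei (69.5%), and 44.8% of them had no Pvalb UMI. Cluster 11 held 140 of the gated nuclei, led by Eya4, Syt2 and Pvalb, and cluster 12 held 45, led by Slit2 and Syt2. Cluster 6, left out of the wider set, held 48 gated Pvalb nuclei beside 173 gated Sst nuclei, and its leading genes included Corin and Klhl14. Cluster 4, led by the complement genes C1qa, C1qb and C1qc, held 4 gated nuclei. In the wider set each library had 64 to 141 nuclei, 74 of them in Ifnar1-/- F1, and the shares were 14.4% ± 1.78 (SD, n = 4) for the Wt mice, against 11.8% ± 2.51 (SD, n = 4) for the Ifnar1-/- mice (exact permutation test, p = 0.143).

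The identity of the gated nuclei was checked on genes that the gate did not use, as medians over the 8 libraries in CPM (the UMIs of a gene relative to all UMIs summed in that library and gate, without TMM scaling), with no test. Kcnc2, the Kv3.2 channel subunit, had a median of 2907 CPM in gated Pvalb nuclei (2529.5 to 3136), 1825 in Sst nuclei and 231 in glutamatergic nuclei. Kcnc1, the Kv3.1 subunit, stood at 609.6 CPM in Pvalb nuclei against 197 in Sst and 54.6 in glutamatergic nuclei. Syt2, the calcium sensor of fast release at basket cell terminals, stood at 280.4 CPM against 18.4 in Sst nuclei, and the ranges over libraries, 188 to 365 and 13.6 to 28.5, were far apart. Esrrg and Ppargc1a, nuclear regulators of mitochondrial gene programs, were also higher in the Pvalb gate, at 967 and 215 CPM against 275 and 98.4 in Sst nuclei. Acan, which encodes the perineuronal net core protein aggrecan, stood at 27.7 CPM against 1.93. Not every gene was higher. Sox6 and Lhx6, transcription factors of interneurons from the medial ganglionic eminence, stood at 813 and 60.3 CPM in Pvalb nuclei and at 758 and 63.2 in Sst nuclei, with overlapping ranges, and the AMPA receptor gene Gria1 was lower in Pvalb nuclei, at 1543 against 2539 CPM.

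Counted by nuclei, 98.5% of the 269 had a Kcnc2 UMI, 80.7% a Syt2 UMI and 23.0% an Acan UMI, against 56.3%, 8.78% and 0.21% of glutamatergic nuclei, whose median depth (10367 UMIs) was close to that of the gate. After every nucleus had been thinned to 3000 UMIs, Syt2 was seen in 53.5% of Pvalb nuclei, 4.51% of Sst nuclei and 2.89% of glutamatergic nuclei. Subtype markers were each found in a part of the members. Tac1, a neuropeptide gene of a basket subset, was found in 34.6% of the nuclei (Wilson 95% interval 29.1 to 40.4, counting error only) and 17.9% of Sst nuclei. Pthlh was found in 9.29% of Pvalb, 1.49% of Sst and 1.13% of glutamatergic nuclei. The chandelier gene Unc5b was found in 5.58%, 4.27% and 2.80%, with overlapping Wilson intervals in Pvalb and Sst nuclei. Vipr2 was less frequent in Pvalb nuclei (0.372%, 1 nucleus) than in Sst (1.28%) and glutamatergic nuclei (0.971%), as was Cpne5 (7.43% against 34.9% and 31.1%). Th was found in 1 Pvalb nucleus. Npy and Reln had a UMI in 22.3% and 23.0% of Pvalb nuclei against 64.5% and 58.6% of Sst nuclei. For Mbp, an oligodendrocyte myelin gene, 25.3% of Pvalb nuclei had a UMI against 44.3% of glutamatergic nuclei.

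Marker lists of other cell types were also detected in gated Pvalb nuclei (summed CPM scaled by TMM, the normalization of the tests). Among the lists of other neurons, striatal projection neuron genes summed to 617 to 926 CPM in Wt and 645 to 1109 in Ifnar1-/-, with 857 to 1109 in the females and 617 to 779 in the males, which did not overlap. Glutamatergic genes summed to 502 to 669 CPM in Wt and 488 to 665 in Ifnar1-/-, and genes of other interneurons to 105 to 556 and 130 to 810.3. All 3 tested genes of other interneurons had higher estimates in Ifnar1-/-, none of them called, and the highest was that of Adarb2, which marks interneurons of caudal origin (142 ± 151 CPM in Wt and 269 ± 286 in Ifnar1-/-, SD, n = 4, edgeR adjusted p = 1). Adarb2 ranged from 21.0 CPM in Wt F1 to 679 CPM in Ifnar1-/- F2. In the wider set, without TMM scaling, Ifnar1-/- F1 stood apart at 271 CPM of Adarb2 and 77.1 of Vip. The other libraries there lay at 8.36 to 36.3 and 1.20 to 13.8 CPM. In the gated nuclei no UMI was seen for 1 of 13 genes of other interneurons (Sncg) and 2 of 10 striatal genes (Adora2a and Pdyn). Pde10a gave most of the striatal UMIs. Microglia genes summed to 116 to 296 CPM in Wt and 97.4 to 354 in Ifnar1-/-, and astrocyte genes to 338 to 495 and 357 to 436. Oligodendrocyte genes summed to 0 to 616 CPM, with 0 to 114 in the females and 96.5 to 616 in the males, which overlapped. Endothelial genes summed to at most 9.75 CPM. All 10 microglia and all 10 oligodendrocyte genes had UMIs, whereas 3 of 9 astrocyte genes (Aqp4, Gfap and Gjb6) and 4 of 9 endothelial and mural genes (Cldn5, Ly6c1, Slco1a4 and Rgs5) had none. Of the astrocyte genes Slc4a4, which neurons also express, gave most UMIs. The genotypes overlapped in each of these lists, and the part of such RNA in the results below was not tested.

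The targeted gene and its pathway were sparse. The gated Pvalb nuclei of the Wt mice gave 33 Ifnar1 UMIs and those of the Ifnar1-/- mice 19, with 84 and 40 in the wider set, where the CPM of Ifnar1 were 21.5, 14.4, 24.9 and 15.5 in Wt and 17.9, 8.97, 11.8 and 14.7 in Ifnar1-/- (F1, F2, M1 and M2 in each list of values), a log2 fold change of -0.61 (SE 0.30, edgeR Benjamini-Hochberg adjusted p = 1). The groups overlapped. Since 3' UMIs need not come from the altered part of the gene, these values do not check the genotype labels. Stat2 had 36 and 21 UMIs in Wt and Ifnar1-/- gated nuclei, Irf9 17 and 13, and the interferon-stimulated gene Isg15 1 and 1. Of 60 interferon response genes, 1 passed the filter on low counts in the gated nuclei (Adar, the RNA editing enzyme, log2 fold change 0.08) and 5 in the wider set, of which 3 had a higher and 2 a lower estimate and none was called. Of 14 genes of the receptor and its JAK-STAT signal, 8 were tested in the wider set and none was called. At this depth most interferon-stimulated genes could not be compared in Pvalb nuclei.

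Between genotypes, 2 of the 6187 genes tested in gated Pvalb nuclei were called at an adjusted p under 0.05 (0.0323%), both higher in Ifnar1-/-. They were Gon4l, a nuclear regulator of transcription, and Gm43713, an antisense RNA gene within it. Without adjustment 201 genes (3.25%) had a p under 0.05, and in 108 genes (1.75%) the 2 genotypes did not overlap. The median log2 fold change over all genes tested was -0.01.

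Gon4l (ENSMUSG00000054199, chr3:88835231-88910103 on the forward strand, GRCm38) stood at 114, 122, 115 and 124 CPM in Wt and 195, 253, 278 and 313 in Ifnar1-/-. Every Ifnar1-/- library was above every Wt library, and the means were 118 ± 4.89 (SD, n = 4) and 259 ± 49.7 (SD, n = 4). The log2 fold change was 1.17 (SE 0.18, edgeR quasi-likelihood test with Benjamini-Hochberg adjusted p = 0.00146). Gm43713 (ENSMUSG00000106218, chr3:88845025-88900001 on the reverse strand) stood at 90.5, 85.7, 36.3 and 65.0 CPM in Wt and 389, 305, 271 and 348 in Ifnar1-/-, again without overlap, a log2 fold change of 2.13 (SE 0.20, adjusted p = 4.78e-07). Gm43713 lies wholly inside Gon4l on the opposite strand. Whether the counting used the strand is not given in the sources used here, so the genes cannot be told apart with certainty. Both were called in the Sst, Vip, Lamp5 and glutamatergic gates too, with log2 fold changes for Gon4l of 1.18, 1.18, 1.34 and 1.02 and for Gm43713 of 1.78, 1.63, 1.83 and 1.72. The effect in Pvalb nuclei minus that in Sst nuclei was -0.02 (SE 0.19) for Gon4l and 0.33 (SE 0.21) for Gm43713, each with an adjusted p of 1 from edgeR.

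Gm26848 (ENSMUSG00000097723, a lincRNA gene at chr17:6314199-6493180 that overlaps Dynlt1a and Dynlt1b among others) stood at 615, 735, 731 and 710.2 CPM in Wt and 1266, 1076, 1184 and 929 in Ifnar1-/-. The groups did not overlap, but the log2 fold change of 0.65 (SE 0.14) did not pass in the gated nuclei (edgeR adjusted p = 0.135). It passed in the wider set, at 0.61 (SE 0.10, adjusted p = 0.00927). In Sst, Vip, Lamp5 and glutamatergic nuclei the estimates were 0.56, 0.51, 0.58 and 0.62, of which the glutamatergic one was called.

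Grik1, the GluK1 subunit of kainate receptors, was called lower in Ifnar1-/- in the wider set and did not pass in the gated nuclei. In the gated nuclei it stood at 1284, 771, 1003 and 632 CPM in Wt and 325, 508, 389.8 and 607 in Ifnar1-/-, so that the highest Ifnar1-/- library (M2, 607) lay just under the lowest Wt library (M2, 632). The log2 fold change was -0.91 (SE 0.20), -1.28 between the females and -0.70 between the males, and it did not pass over all genes (edgeR adjusted p = 0.135). In the wider set the CPM were 936, 998, 957 and 705 in Wt and 606, 408, 495 and 527 in Ifnar1-/-, and the log2 fold change of -0.82 (SE 0.12) passed (adjusted p = 0.00387). Among gated nuclei 92.0% of Wt and 84.0% of Ifnar1-/- nuclei had a Grik1 UMI, and 76.1% and 61.3% after thinning to 3000 UMIs. Grik1 was chosen for naming with earlier results of these data known.

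The genotype effect on Grik1 differed between Pvalb and glutamatergic nuclei. In Sst nuclei, where Grik1 was more abundant (1369 against 572 CPM as medians over libraries), the log2 fold change was -0.10, in Vip nuclei -0.38, in Lamp5 nuclei -0.06 and in glutamatergic nuclei 0.31, and none was called. The test of the difference itself between gated Pvalb and glutamatergic nuclei gave -1.18 on the log2 scale (SE 0.17, edgeR adjusted p = 7.26e-04). Against Sst nuclei the difference was -0.79 (SE 0.17, adjusted p = 0.274) for the gated nuclei and -0.72 (SE 0.10, adjusted p = 0.000144) for the wider set. By cluster, summed over the mice of a genotype and with no test, Grik1 stood at 724 CPM in Wt and 460.0 in Ifnar1-/- in cluster 11, at 1274 and 650.3 in cluster 12 and at 2185 and 1738 in cluster 6. The library ranges in cluster 12 were 1085 to 1461 in Wt and 543 to 780.4 in Ifnar1-/-.

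**Figure D2:**
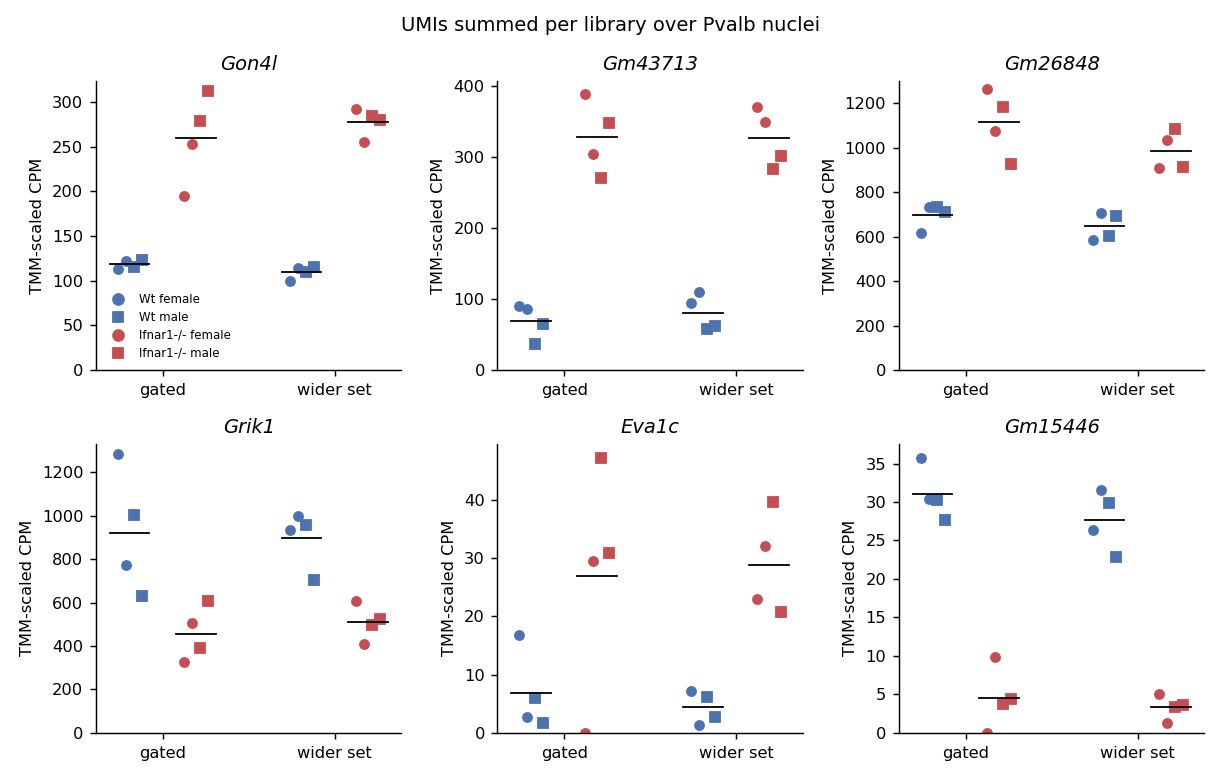
TMM-scaled CPM of 6 genes, 1 point per library, in gated Pvalb nuclei and in the wider set, with females as circles, males as squares, Wt in blue, Ifnar1-/- in red and bars at the group means. Gon4l, Gm43713 and Gm26848 were higher in all 4 Ifnar1-/- libraries and Grik1 and Gm15446 lower, in both sets. Eva1c overlapped in the gated nuclei, where Ifnar1-/- F1 had 0, and not in the wider set.

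Over all genes, the genotype effect in gated Pvalb nuclei differed from that in Sst nuclei for 0 of 6187 genes (0%) by edgeR, with 222 (3.59%) at an unadjusted p under 0.05. Against glutamatergic nuclei it differed for 2 genes (0.0323%), Grik1 and Cntfr. Cntfr, the receptor for ciliary neurotrophic factor, stood at 46.3, 47.0, 30.2 and 52.0 CPM in Wt and 32.5, 62.3, 49.2 and 52.8 in Ifnar1-/- Pvalb nuclei, with overlap and a log2 fold change of 0.22 (SE 0.28). In glutamatergic nuclei its unscaled CPM were 67.3 to 85.4 in Wt and 24.9 to 36.9 in Ifnar1-/-, a log2 fold change of -1.21 (edgeR adjusted p = 0.00104). The difference between the gates was 1.43 (SE 0.27, adjusted p = 0.0261). It did not pass with DESeq2, with a replicate block, or when any of Wt F1, F2, M1 and M2 and Ifnar1-/- F2 and M1 was left out.

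**Figure D3:**
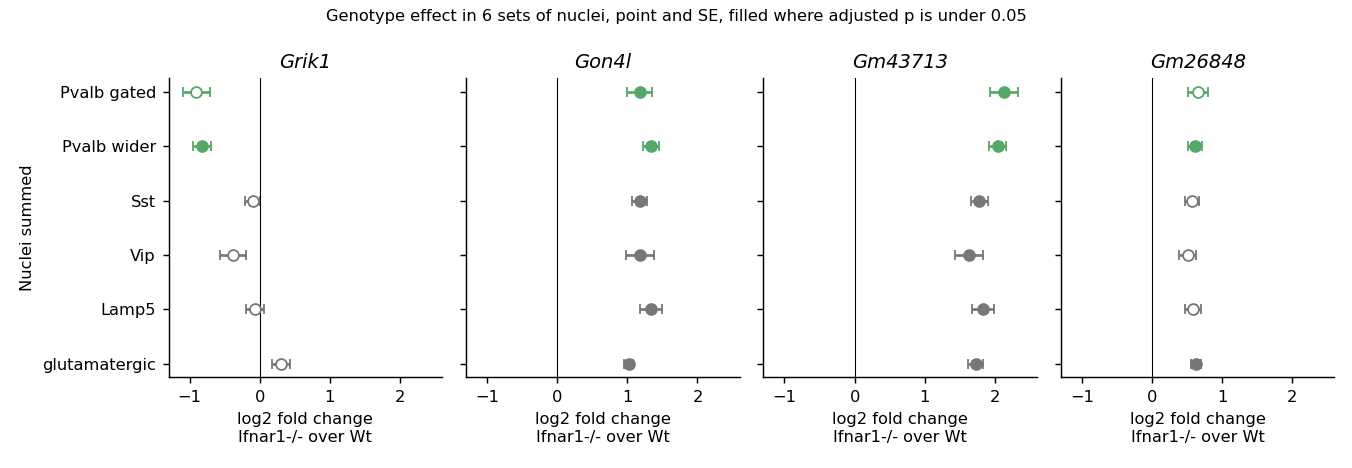
Log2 fold change between genotypes (point, with SE as the bar) of 4 genes in 6 sets of nuclei, filled where the edgeR adjusted p was under 0.05, with the Pvalb sets in green. Gon4l and Gm43713 were above 0 and called in every set shown, while Grik1 lay at -0.91 and -0.82 in the Pvalb sets and between -0.38 and 0.31 in the others.

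In the wider set 6 of 8901 genes were called between genotypes (0.0674%), with 435 (4.89%) at an unadjusted p under 0.05 and 170 (1.91%) without overlap. Beside Gon4l, Gm43713, Gm26848 and Grik1 these were Eva1c and Gm15446, both too sparse to be tested in the gated nuclei. Eva1c, a receptor of axon guidance ligands, had 21 UMIs in Wt and 98 in Ifnar1-/- wider set nuclei, or 7.17, 1.31, 6.24 and 2.74 and 23.0, 32.0, 39.7 and 20.8 CPM by library. It passed the filter on low counts (a minimum count of 10) only through the Ifnar1-/- libraries and so had to differ, which makes its fold change and p a description. The log2 fold change was 2.62 (SE 0.38, edgeR adjusted p = 0.00313). The difference from Sst nuclei was 3.04 (SE 0.50, adjusted p = 0.0012), which rests on the same filter and is a description too. In Sst nuclei Eva1c stood at 3.41 to 7.31 CPM in Wt and 3.48 to 6.72 in Ifnar1-/-. The call of Eva1c between genotypes in the wider set was lost without the sex covariate (edgeR adjusted p = 0.0605), and Eva1c shares its locus with the antisense gene Gm36363.

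Gm15446, a gene model on chromosome 5, had 117 UMIs in Wt and 10 in Ifnar1-/- in the wider set (50 and 6 in the gated nuclei), or 26.3, 31.5, 29.9 and 22.8 against 5.11, 1.28, 3.38 and 3.67 CPM by library, a log2 fold change of -3.05 (SE 0.37, edgeR adjusted p = 3.09e-04). It passed the filter on low counts only through the Wt libraries and so had to differ too. It was lower in Sst nuclei (-2.18) and glutamatergic nuclei (-2.59) as well, where it was also called. Gm12576 had 28 UMIs in Wt and 0 in Ifnar1-/- of the wider set, at least 6.79-fold lower against a floor of 3 counts over the group, and Selenbp2 had 2 and 21.

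In the wider set the genotype effect differed from that in Sst nuclei for 4 genes (0.0449%): Grik1, Eva1c, Lingo2 and Nyap2. For Eva1c this is a description only, because of the filter on low counts. Lingo2, a leucine-rich repeat membrane protein, stood at 218, 299, 357 and 198 CPM in Wt and 253, 114, 140.2 and 122 in Ifnar1-/-, with overlap, and its difference from Sst nuclei was -0.85 (SE 0.16, edgeR adjusted p = 0.00708). Nyap2, a phosphoinositide 3-kinase adaptor, stood at 103, 61.7, 44.9 and 72.04 and 123, 261, 122 and 104 CPM, with a difference of 0.91 (SE 0.18, adjusted p = 0.0286). Neither was called between genotypes in the wider set itself, with edgeR adjusted p of 0.425 for Lingo2 and 0.0512 for Nyap2. Against glutamatergic nuclei the effect differed for 9 genes (0.101%), among them these 4 with Cntfr, Fstl5, Cacna2d3 and Prr16. Eva1c is again a description only.

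Grik1 and Eva1c lie on chromosome 16 as Ifnar1 does, 3.195 Mb and 0.58 Mb from it. Of the 53 genes within 10 Mb of Ifnar1 that were tested in the wider set, these 2 were called (3.77%, against 0.0674% over all genes). The call of Eva1c is a description only, because of the filter on low counts. Of the 37 tested in the gated nuclei none was called (0.0323% over all genes). An unadjusted p under 0.05 was found for 4 of the 37, against 3.25% over all genes. The median log2 fold change of the 53 was -0.01. The part of this position in the Grik1 and Eva1c results was not tested.

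The genes of Pvalb cell function were examined as lists by role, and no list gene was called in the gated nuclei. Of 25 fast-spiking ion channel genes tested, 17 had a higher estimate in Ifnar1-/- and the median log2 fold change was 0.05, against 48.0% higher and a median of -0.01 over all genes. Kcnc2 stood at 3456, 2930.5, 3234 and 2751 CPM in Wt and 2888, 3421, 3216 and 3086 in Ifnar1-/- (0.04, SE 0.12), and the 2 sets of values overlapped. Kcnc1 (-0.04, SE 0.14) and Scn1a (0.02, SE 0.14) overlapped likewise. Scn3a, a sodium channel of immature neurons, had an estimate of 1.14 (SE 0.33, edgeR adjusted p = 1) with Ifnar1-/- F2 at 115 CPM, the other 7 libraries lying between 24.4 and 37.9.

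Of 13 interneuron transcription factors, 7 had a higher estimate (median 0.03). Lhx6 (0.04, SE 0.26), Sox6 (-0.14, SE 0.15), Mef2c (-0.26, SE 0.13) and Esrrg (0.10, SE 0.14) did not pass. Ppargc1a, the PGC-1alpha coactivator of mitochondrial biogenesis, stood at 240.0, 246, 181 and 197 CPM in Wt and 227, 318, 223 and 317 in Ifnar1-/- (0.39, SE 0.17), with overlap. For the 11 genes of GABA synthesis, packaging and uptake the median was -0.02, with Slc32a1, the vesicular GABA transporter, at -0.03 (SE 0.22). The gate genes themselves are given without a test. Pvalb stood at 208, 259.9, 302 and 283 CPM in Wt and 259.6, 174, 293 and 220.1 in Ifnar1-/-, and Sst, which the gate held to at most 1 UMI a nucleus, at 14.7, 13.8, 12.1 and 21.1 and 32.5, 29.5, 30.3 and 26.4.

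On the output and input sides the lists were close to 0 as well. The median was -0.05 for 21 transmitter release genes, with Syt2 at -0.16 (SE 0.17), and 0.04 for 17 genes of calcium buffering and calcium channels. For 20 ionotropic glutamate receptor genes it was -0.04, with Grik1 the lowest and Gria1 (0.05, SE 0.13) and Gria4 (0.07, SE 0.13) near 0. For 19 GABA and glycine receptor genes it was 0.04, and for 13 neuromodulator receptor genes 0.01. Among the latter Chrm2, the M2 muscarinic receptor, stood at 88.4, 55.3, 115 and 87.8 CPM in Wt and 129.8, 141, 176 and 128 in Ifnar1-/- without overlap (0.80, SE 0.22, edgeR adjusted p = 0.882), but the estimate turned to -0.33 in the wider set. For 26 adhesion and neuregulin genes the median was -0.03, with the neuregulin receptor Erbb4 at -0.04 (SE 0.11), and Cntn5, a contactin, had the smallest p of the list at -0.39 (SE 0.12, adjusted p = 1). For 8 perineuronal net genes it was -0.02, and Acan stood at 31.6, 30.4, 18.1 and 19.5 and 32.5, 29.5, 37.8 and 70.4 CPM (0.75, SE 0.38).

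**Figure D4:**
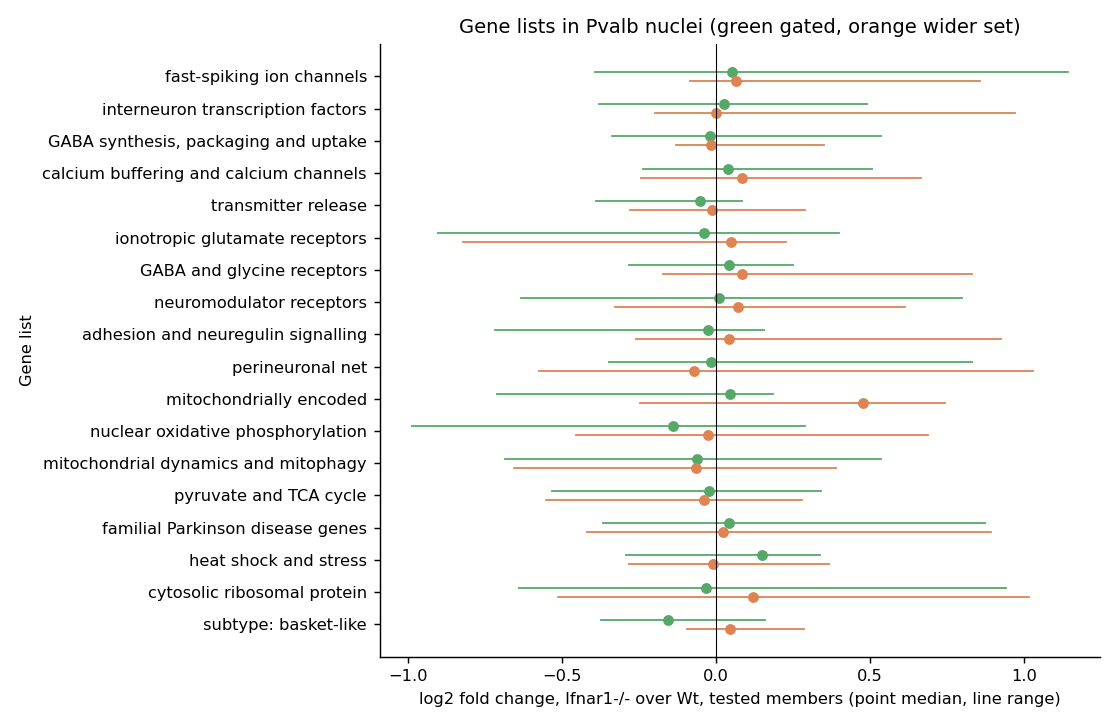
Median (point) and range (line) of the log2 fold changes between genotypes over the tested members of the gene lists with at least 3 members tested in the gated nuclei, marker lists of other cell types left out, in gated Pvalb nuclei (green) and the wider set (orange). Of the lists drawn, medians lay between -0.16 and 0.15 in the gated nuclei, and in the wider set the mitochondrially encoded genes stood highest at 0.48.

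For the metabolic lists, 16 of 49 nuclear oxidative phosphorylation genes had a higher estimate in Ifnar1-/- (median -0.14), and 31 of 70 in the wider set (median -0.02). Of 10 mitochondrially encoded genes 6 were higher (median 0.04), and of 11 in the wider set 10 (median 0.48), with none called in either. An unadjusted edgeR p under 0.05 was found for 2 of the 10 (3.25% over all genes) and 5 of the 11 (4.89% over all genes). The mitochondrially encoded share of UMIs in gated nuclei was 0.200%, 0.297%, 0.500% and 0.578% in Wt and 0.328%, 0.219%, 0.463% and 0.720% in Ifnar1-/-, means of 0.394% ± 0.175 (SD, n = 4) and 0.432% ± 0.216 (SD, n = 4), and the groups overlapped (exact permutation test, p = 0.8). In the wider set the share overlapped too, at 0.194% to 0.629% in Wt and 0.207% to 0.890% in Ifnar1-/-. Its means there were 0.394% ± 0.182 (SD, n = 4) and 0.538% ± 0.281 (SD, n = 4; exact permutation test, p = 0.4). The medians were -0.06 for 20 genes of mitochondrial dynamics and mitophagy, -0.02 for 24 genes of pyruvate and TCA cycle metabolism and 0.04 for 14 familial Parkinson disease genes. Ndufb10, a subunit of respiratory complex I, stood at 37.9, 33.2, 42.3 and 37.4 CPM in Wt and 0, 26.2, 15.1 and 17.6 in Ifnar1-/- without overlap, but did not pass (-0.99, SE 0.39, edgeR adjusted p = 1). It passed the filter on low counts only through the Wt libraries, so its lack of overlap, fold change and p are a description.

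More genes differed between the sexes than between the genotypes in Pvalb nuclei. Of the 6187 genes in gated nuclei, 395 (6.38%) were called between males and females, 283 higher in males (4.57%) and 112 lower (1.81%), of which 375 lay outside chromosomes X and Y and the mitochondrial genome. In the wider set 1298 of 8901 genes (14.6%) were called, and they included 345 of the 394 genes called in the gated nuclei that were tested there. The first principal component of the wider set, with 69.8% of the variance of the 500 most variable genes, separated the sexes (exact permutation test, p = 0.0286), and the same test between the genotypes gave p = 0.657.

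C1qtnf4, a secreted C1q domain protein, stood at 61.0, 35.9, 32.5 and 49.2 CPM in the females (Wt F1, Wt F2, Ifnar1-/- F1 and Ifnar1-/- F2) and 326, 356, 310.3 and 216 in the males, a log2 difference of 2.69 (SE 0.22, edgeR adjusted p = 4.94e-09). Atp6v0b, a subunit of the vacuolar proton pump, stood at 177, 85.7, 32.5 and 151 CPM in females and 647, 627, 658 and 361 in males (2.13, SE 0.23). In both the sexes did not overlap. Gm44511 went the other way, at 621, 1020.1, 1071 and 882 CPM in females and 206, 310.4, 189 and 317 in males (-1.75, SE 0.19).

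By list, 9 of 10 mitochondrially encoded genes and 12 of 49 nuclear oxidative phosphorylation genes were called higher in males, 1 of the latter lower. Over all genes tested in the gated nuclei, 4.57% were called higher in males and 1.81% lower. Of 6 heat shock and stress genes 2 were higher, among them Hspa8 (1.11, SE 0.24), and of 11 cytosolic ribosomal protein genes 2. The latter became 18 of 32 in the wider set, where 14.6% of all genes were called in either direction. Of the 25 fast-spiking channel genes tested in the gated nuclei, 3 were higher and 2 lower. The mitochondrially encoded share of UMIs was 0.200% to 0.328% in females and 0.463% to 0.720% in males (exact permutation test, p = 0.0286, the smallest that 4 against 4 allows). The sexes were also apart in glutamatergic nuclei, with 0.126% to 0.301% in females and 0.342% to 0.767% in males. They were apart in Vip nuclei (0.229% to 0.636% and 0.680% to 1.45%) and in Lamp5 nuclei (0.199% to 0.530% and 0.607% to 1.14%) too. In Sst nuclei they overlapped, with 0.234% to 0.500% and 0.470% to 1.01%. The striatal sums given above were apart by sex as well, with 1 gene of that list, Pde10a, called lower in males, while the oligodendrocyte sums of the sexes overlapped. The part of these lists in the calls was not tested. How animals were handled by sex is not given in the sources used here, so sex and handling cannot be told apart.

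**Figure D5:**
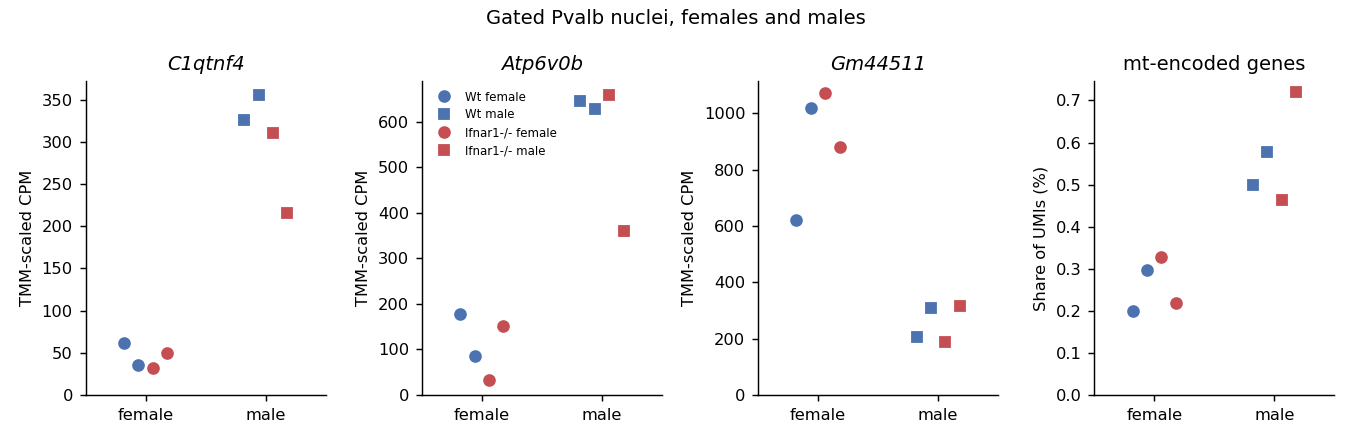
TMM-scaled CPM of C1qtnf4, Atp6v0b and Gm44511 and the mitochondrially encoded share of UMIs (%) in gated Pvalb nuclei, 1 point per library, with females as circles, males as squares, Wt in blue and Ifnar1-/- in red. Females and males did not overlap in any of the 4 panels, while the genotypes overlapped in all of them.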

How the data were processed

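Cortical nuclei of 8 mice were profiled with 10x 3' v3 chemistry. The authors deposited raw UMI counts of 31053 genes per barcode, made with Cell Ranger on mm10, and their processing notes also name Seurat 3.1.5. The deposited counts are not normalized, and p-values measure the spread between mice. The members and gene lists were chosen with earlier results of these data known.

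Nuclei with 200 to 6000 genes, more than 1000 UMIs and under 10% mitochondrially encoded UMIs were kept. The rule chose gated nuclei, and comparison gates used the same limits (Sst, Vip, Lamp5) or Slc17a7 of at least 3 with Gad1 plus Gad2 at most 1 (glutamatergic). UMIs were summed per library and gate. edgeR 4.0.16 in R 4.3.3 (TMM scaling, filterByExpr, quasi-likelihood test, sex as covariate, Benjamini-Hochberg adjustment over all genes tested) gave genotype and sex effects, and a joint fit with a library term gave differences between gates. SE is the estimate over the root of its F. Genes were placed by the GRCm38 annotation. Named genes were all called genes, 26 fixed ones, up to 2 per list with the smallest p, the 10 autosomal genes with the smallest p for sex, and genes whose effect differed between gates. The scripts were tested on simulated data. Same-numbered libraries correlated only through sex (0.12 to 0.24 from genotype means, -0.04 to -0.03 from genotype and sex means). Alternatives covered normalization, filter, test (DESeq2 1.42.0), covariate, gate limits, doublets (Scrublet), thinning and left-out libraries. Some genes that the naming rule selects are not reported here.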

Additional observations from a re-analysis of the deposited data

Results flagged for a closer look

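Of 134 groups of 4 libraries examined in gated Pvalb nuclei, 5 (3.73%) held a library far from the other 3, and chance flags about 1 in 20. The values of 4 are given. Gls2 stood at 0 CPM in Ifnar1-/- F1, which had 4 gated nuclei, against 45.9 to 51.1, and Htr2c stood at 129.8 in the same library, against 48.4 to 55.8. Scn3a stood at 115 in Ifnar1-/- F2 against 32.5 to 35.9, and Shisa9 at 398 in Wt F1 against 184 to 207.

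The genotype effect differed between Pvalb and other nuclei by edgeR's test of the difference in 15 cases, of which 14 are given. In gated nuclei, Grik1 (-1.18) and Cntfr (1.43) differed from glutamatergic nuclei on the log2 scale. In the wider set, the differences from glutamatergic nuclei were -1.14 for Grik1, 1.47 for Cntfr, 3.08 for Eva1c, 0.88 for Fstl5, -0.88 for Lingo2, 0.95 for Nyap2, 0.61 for Cacna2d3 and -0.55 for Prr16. Those from Sst nuclei were -0.72 for Grik1, 3.04 for Eva1c, -0.85 for Lingo2 and 0.91 for Nyap2. The Eva1c values are descriptions, since Eva1c passed the filter on low counts only through the Ifnar1-/- libraries.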

How the results depend on the processing

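The number of genes called between genotypes in Pvalb nuclei, 2, was 2 with RLE scaling, without the sex covariate, with the replicate block, with Slc17a7 at 0 and without doublets, and 3 with DESeq2. It was 16 with no filter, 4 with Pvalb at 1 UMI or more, 0 at 3 or more, 0 after thinning to 3000 UMIs (192 genes tested), 6 in the wider set, and 8 there with the block or without Ifnar1-/- F1. Leaving out single libraries gave 2 to 5. For the thinning alternative, the gate was applied to counts thinned to 3000 UMIs, and the full UMIs of the nuclei it chose were summed. It left 13 gated Pvalb nuclei, with none in Wt M1 or Ifnar1-/- F2. The number of genes called between sexes in Pvalb nuclei, 395, became 203 with DESeq2, 964 and 71 with the looser and stricter Pvalb limit, 0 after thinning, 137 (without Wt M2) to 574 with single libraries left out, 1298 in the wider set and 1150 there without Ifnar1-/- F1. The count of differences from Sst nuclei (0) became 10 with no filter, 0 to 2 with single libraries left out, and in the wider set 4, with the block 3 and without sex or without Ifnar1-/- F1 4. From glutamatergic nuclei (2) it became 12 with no filter, 1 with DESeq2 or the replicate block, 0 with the stricter Pvalb limit or thinning, 1 to 4 with single libraries left out, 9 in the wider set and with the block there, 5 without sex and 11 without Ifnar1-/- F1. The cause was not tested.

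Gon4l and Gm43713 kept their call except with Pvalb at 3 UMIs or more (log2 fold changes 0.94 and 1.81), and were not tested after thinning. Grik1 passed in 7 of 22 alternatives, among them single libraries left out (Wt F2, Wt M2 or Ifnar1-/- M2). Of 1568 alternatives over 80 named gene results 1524 kept direction and side, 13 lost and 21 gained the call, and 10 reversed. These were Cacna2d3 without Ifnar1-/- F2 (-0.36, with up to 0.85 when other single libraries were left out), mt-Nd1 in the wider set with the block (0.21), Chrm2 in the wider set (-0.33), there without sex (-0.33), with the block (-0.34) and without Ifnar1-/- F1 (-0.41), and Htr2c likewise (0.35, 0.33, 0.33 and 0.24). Of 389 alternatives over 18 list medians 381 stayed within the spread.

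The genotype difference in the share of Pvalb nuclei stayed negative, from -3.09 to -0.13 percentage points. The difference in mitochondrially encoded share changed sign with single libraries left out, from -0.0574 (without Ifnar1-/- M2) and -0.0259 (without Wt F1) up to 0.110, and had no value with Pvalb at 3 or more or thinned, where libraries held no nuclei. With 4 nuclei in Ifnar1-/- F1 the depth of the gate limits every gated comparison.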

Other observations

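Cluster 27 of the GABAergic nuclei, 31 nuclei (10 Wt and 21 Ifnar1-/-) and part of the wider Pvalb set, was led by Unc5b and also by Pthlh, genes of chandelier cells, the Pvalb class that contacts the axon initial segment. Unc5b stood at 655 CPM in Wt and 487 in Ifnar1-/- of the cluster, summed over mice, against at most 4.82 in clusters 11 and 12. Vipr2 had 4 UMIs in Wt and 11 in Ifnar1-/- there and none in clusters 11 and 12. Pvalb itself was sparse in it, with 2 and 7 UMIs, and 2 of the 31 nuclei passed the Pvalb gate. Of 4 chandelier list genes tested in the wider set all had a higher estimate in Ifnar1-/- (median log2 fold change 0.76), against 49.6% of all genes tested. An unadjusted edgeR p under 0.05 was found for 3 of the 4, against 4.89% of all genes tested, and none was called. With 0 to 6 nuclei per library the composition of the set and the level per nucleus cannot be told apart.

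Tac1, a tachykinin gene, marked cluster 12 more than cluster 11, at 387 against 86.7 CPM in Wt and 430 against 99.7 in Ifnar1-/-, with Grik1 also higher in cluster 12. Within the gated nuclei Tac1 did not pass between genotypes (-0.37, SE 0.32).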
